A study of Mus musculus with 28 samples.

Results

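8 tissue kallikreins known from the epidermis (Klk5, Klk6, Klk7, Klk8, Klk10, Klk11, Klk13 and Klk14) and the gene of their inhibitor, Spink5, were taken by name from the 29068 gene symbols of a count table of mouse wound skin. All 9 were in the table, and all 9 were among the 18107 genes with enough counts to be tested. Total RNA from the wound site was sequenced in 28 libraries, 4 on each of 7 days, which the labels call Day0, Day3, Day5, Day7, Day10, Day12 and Day14. The study's design text speaks of 5 repeats, and 4 a day were analysed here. The mice were C57BL/6J and wild type for Mlkl (MLKL+/+), were 8 weeks old and included both sexes, and the labels do not give the sex behind a library. A full-thickness wound of 6 mm was made with a biopsy punch on the back and left to heal, and the whole wound site was collected with its scab and its epithelial margins. The labels give all 28 libraries, Day0 included, the treatment of natural wound healing, and whether the Day0 skin held a punch wound is not stated. Day0 is the control in the study's design, whereas the methods list day 1 as the earliest time and give that number to the injury itself, so that the time since injury of these 4 libraries is not settled, and all changes below except those between successive wound days are changes against them. The labels speak of replicate samples and not of separate animals, so that the p-values measure the spread between these libraries, which may be technical.

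Tissue kallikreins are secreted serine proteases made as inactive precursors. In the upper epidermis Klk5 and Klk14, which cut after basic residues, and Klk7, which cuts like chymotrypsin, degrade the corneodesmosomes that hold dead cells together, and Klk5 can activate itself and other kallikreins. Spink5 encodes LEKTI, an inhibitor with several Kazal-type domains that is secreted by granular keratinocytes and blocks these proteases, and its loss causes Netherton syndrome, in which the skin barrier fails.

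The kallikreins lie side by side on one strand and do not overlap each other. With Klk9 and Klk12 they filled a block of 10 genes at chr7:43690418-43851181 (mm10, + strand), in the order Klk14, Klk13, Klk12, Klk11, Klk10, Klk9, Klk8, Klk7, Klk6 and Klk5. A transcript of the opposite strand, 2310002F09Rik (chr7:43695209-43797958), overlaps Klk8, Klk10, Klk11, Klk13 and Klk14, and whether the counting used strand is not stated, so that its reads and theirs cannot be told apart at the shared bases. It had between 0 and 21 counts in a library. Klk5, Klk6 and Klk7 overlap no other annotated gene, and Klk13 and Klk14 each also overlap a gene model of their own strand that the table does not list.

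The sequence before the start of 4 of these genes is shown for 3 kinds of course. Klk13 and Klk6 rose together, and Klk8 rose later. Klk7 had the highest level, was lower on Day10 and changed little against Day0 on the other days. The sequences are windows before RefSeq starts on GRCm38.p6, 5′ to 3′. Those of Klk13, Klk8 and Klk7 are 250 bases long and end at the last base before the RefSeq start. That of Klk6 is 205 bases long and stops short of its RefSeq start at 43824544. It ends before the gene start at 43824499, which is that of the annotation used for the locations above. Klk6 has another RefSeq start, which is not shown. Capitals mark the letters TTAAAA.
Klk13 (chr7:43712317-43712566, + strand): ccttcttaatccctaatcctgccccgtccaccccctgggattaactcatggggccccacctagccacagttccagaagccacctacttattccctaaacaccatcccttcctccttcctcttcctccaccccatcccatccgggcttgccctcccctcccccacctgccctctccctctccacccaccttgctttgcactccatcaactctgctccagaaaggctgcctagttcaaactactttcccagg
Klk6 (chr7:43824294-43824498, + strand): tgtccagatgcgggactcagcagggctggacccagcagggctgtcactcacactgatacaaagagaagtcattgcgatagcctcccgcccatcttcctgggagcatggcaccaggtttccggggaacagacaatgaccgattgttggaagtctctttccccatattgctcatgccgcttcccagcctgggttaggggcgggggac
Klk8 (chr7:43797327-43797576, + strand): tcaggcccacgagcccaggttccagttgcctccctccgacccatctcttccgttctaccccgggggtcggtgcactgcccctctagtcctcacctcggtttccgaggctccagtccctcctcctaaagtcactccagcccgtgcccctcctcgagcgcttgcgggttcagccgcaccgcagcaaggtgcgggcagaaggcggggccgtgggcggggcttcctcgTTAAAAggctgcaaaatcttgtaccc
Klk7 (chr7:43811044-43811293, + strand): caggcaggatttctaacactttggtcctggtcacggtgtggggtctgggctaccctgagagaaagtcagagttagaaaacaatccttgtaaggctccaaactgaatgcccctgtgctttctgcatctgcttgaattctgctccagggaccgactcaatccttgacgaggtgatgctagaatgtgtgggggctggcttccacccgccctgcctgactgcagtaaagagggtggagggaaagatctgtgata

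All 8 kallikreins were matched to the RefSeq table, at 10 start sites, and 3 sets of letters were searched on both strands in the 250 bases before each. Neither TATAAA, the core of a TATA box, nor TGANTCA, the site of AP-1 factors, was found before any of the 10, and 12.4% and 6.75% of the 32851 promoters of the table hold them. The run TTAAAA was searched after the sequences were seen and was found once before Klk8 (26 bases from the start), Klk10, one start of Klk6 and one of Klk11, against 17.7% of all promoters. A missing match says only that these letters are not in this window.

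Each library held between 36706513 and 40655764 counts, a narrow range. The Day0 libraries were the least alike: replicates 2 and 3 differed from each other by about as much as libraries of one later day did (SD of the log2 difference over all genes 0.45, against 0.40 to 0.50), and the other Day0 pairs by 0.69 to 0.79. The summed CPM (a gene's share of its library's normalized total) of the fibroblast markers was 41248 and 39829 in replicates 2 and 3 and 17746 and 10035 in replicates 1 and 4, and that of the basal keratinocyte markers was 2965 and 3056 against 5906 and 6725. For the 9 genes, values against Day0 are therefore given below also with replicates 2 and 3, or 1 and 4, as the only Day0 libraries wherever this ends or adds a call, a pair of settings chosen after seeing the data. For the other lists such values are given where they end or add a printed call of a named gene or move a printed count by 2 genes or more. The fit pools the spread of a gene over all days, so that its standard errors do not carry the larger spread of Day0.

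The kallikreins did not move as one group. Klk13 and Klk14 were above Day0 on all 6 later days, Klk6 most clearly on Day3 to Day7 and Klk8 on Day7 to Day12, and Klk5 and Spink5 were below it on Day3, Day10 and Day14. By edgeR's quasi-likelihood test at an adjusted p (Benjamini-Hochberg, over all genes tested) under 0.05, 3 of the 9 genes were higher on Day3 and 2 lower, where 31.8% and 34.8% of all genes tested were. On Day5 the counts were 4 higher and 2 lower (29% and 30.6% of all genes), and on Day7 they were 4 higher and 0 lower (25.6% and 24.8%), where at an unadjusted p under 0.05 and by DESeq2 the number lower was 0 as well. On Day10 there were 4 higher and 4 lower (23.5% and 26.9% of all genes), on Day12 4 higher and 1 lower (21.7% and 25.6%), and on Day14 3 higher and 4 lower (28.2% and 34.5%). The median log2 fold change of the 9 genes was 0.04, -0.11, 0.21, -0.04, 0.30 and -0.19 on the 6 days, beside a median between -0.06 and 0.00 over all genes tested. A median of 9 genes is the value of the middle one and does not show those that moved most. The number lower on Day5 was 4 without Day0 replicate 4, 1 without Day0 replicate 2 or Day5 replicate 3, and 0 without Day0 replicate 3 or Day5 replicate 2, that on Day7 was 1 without Day0 replicate 1 and 2 without Day0 replicate 4, and that on Day12 was 2 without Day0 replicate 4. With Day0 replicates 1 and 4 only, 6 genes were higher on Day3, 7 on Day7 and 6 on Day12, and none was lower on Day5. With Day0 replicates 2 and 3 only, 4 genes were lower on Day3, 5 on Day5, 2 on Day7, 4 on Day12 and 6 on Day14. In RNA of whole tissue, more cells of a type and more RNA per cell cannot be told apart.

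**Figure D1:**
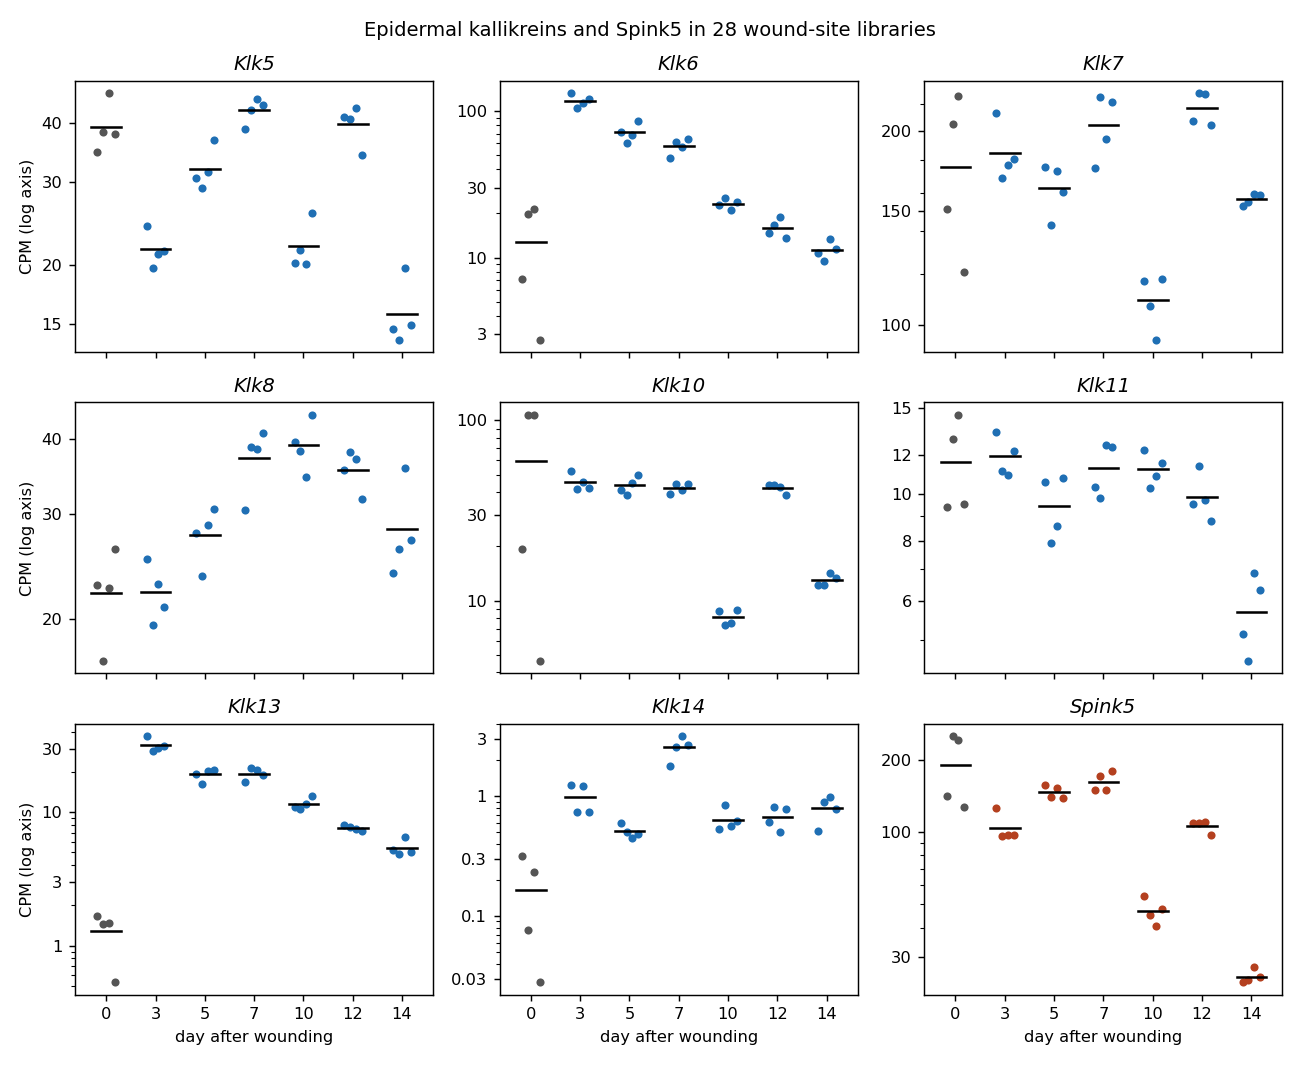
CPM of the 9 genes (log axis) in each of the 28 libraries by day, with a bar at the mean of the 4 libraries; grey points are Day0. Klk6 and Klk13 peaked on Day3, Klk14 on Day7, and Spink5 ended on Day14 between 23.6 and 27.3 CPM, below all libraries of the other days.

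Klk13 rose on all 6 later days. It had 1.66, 1.44, 1.48 and 0.529 CPM in the 4 Day0 libraries (19 to 63 counts) and 37.4, 29.0, 30.2 and 31.7 CPM on Day3. It then declined, to between 16.4 and 20.8 CPM on Day5, 16.8 and 21.5 on Day7, 10.6 and 13.2 on Day10, 7.25 and 8.11 on Day12, and 4.90 and 6.53 on Day14. Every library of every later day was above every Day0 library. The log2 fold change was 4.64 on Day3 (SE 0.18, adjusted p = 2.5e-18 by edgeR's quasi-likelihood test), a 24.9-fold increase, and 3.91, 3.92, 3.17, 2.57 and 2.07 on Day5 to Day14, each with an adjusted p of at most 9.8e-11 (exact permutation p = 0.0286 on each day, the smallest that 4 libraries against 4 allow).

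Klk6, a trypsin-like protease known also from the nervous system, followed a like course from a higher start. Day0 replicates 1 to 4 had 7.13, 19.7, 21.3 and 2.75 CPM, and the Day3 libraries had 132, 105, 113 and 120. It was between 60.8 and 85.8 CPM on Day5, 47.5 and 64.3 on Day7, 21.1 and 25.7 on Day10, 13.6 and 18.9 on Day12, and 9.49 and 13.3 on Day14. The groups did not overlap on Day3, Day5 and Day7, and from Day10 on they did. The log2 fold change was 3.20 on Day3 (SE 0.31, adjusted p = 6.3e-10, edgeR's quasi-likelihood test), a 9.19-fold increase, 2.48 on Day5 and 2.17 on Day7, and it was 2.52 on Day3 with Day0 replicates 2 and 3 only and 4.61 with replicates 1 and 4 only. On Day10 it was 0.87 (adjusted p = 0.018, edgeR), a call that was lost with Day0 replicates 2 and 3 only (0.19, adjusted p = 0.26), without Day0 replicate 1 (0.67, adjusted p = 0.064) and with edgeR on the 8 libraries of both days (0.87, adjusted p = 0.20). On Day12 and Day14 it was 0.32 (adjusted p = 0.40, and 0.72, adjusted p = 0.044, with limma at a mean FPKM of at least 1) and -0.19 (adjusted p = 0.62), and which side of Day0 Klk6 was on depended on the Day0 libraries: -0.36 and -0.87 against replicates 2 and 3, and 1.70 and 1.25 against replicates 1 and 4, each with an adjusted p of at most 0.028.

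Klk14, which with Klk5 is a main trypsin-like protease of the cornified layer, had few reads. Day0 replicates 1 to 4 had 12, 3, 9 and 1 counts, and the Day3 libraries had 46, 27, 45 and 27. Its peak was on Day7, with 69, 101, 125 and 107 counts, and no other library had more than 46. All libraries of every later day were above all of Day0 on the CPM scale, and the log2 fold change was 2.57 on Day3 (SE 0.38), 1.61 on Day5 (SE 0.40), 3.94 on Day7 (SE 0.37), 1.94 on Day10 (SE 0.39), 2.02 on Day12 (SE 0.39) and 2.25 on Day14 (SE 0.39). The adjusted p of edgeR's quasi-likelihood test was 0.0011 on Day5 and at most 0.00017 on the other days. Day7 stood above both of its neighbours, by 2.33 against Day5 (adjusted p = 2.2e-06) and with Day10 lower by 2.0 than Day7 (adjusted p = 1.3e-05; log2, edgeR). The counts of Day0 lay within the range of the antisense transcript that overlaps Klk14 (0 to 21 over all libraries) and those of Day3, Day7 and Day12 above it. On Day5 Klk14 had 23, 19, 17 and 18 counts, 3 of them within that range. Of Day10 and Day14, 1 library each had 21. The part of antisense reads in the values of Klk14 was not tested.

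Klk8, also called neuropsin, rose later and less. It had 22.8, 17.0, 22.5 and 26.1 CPM on Day0 and 25.2, 19.5, 22.9 and 20.9 on Day3, where the groups overlapped and the log2 fold change was 0.00 (SE 0.13). On Day7 it had 30.4, 38.8, 38.5 and 40.8 CPM, on Day10 39.5, 38.1, 34.6 and 43.9, and on Day12 35.4, 38.0, 36.9 and 31.7, all above Day0. The log2 fold change was 0.75, 0.82 and 0.69 on these days (SE 0.12 each, adjusted p of at most 4.9e-05, edgeR's quasi-likelihood test), and the highest day mean of Klk8 was that of Day10, the day of the lowest mean of Klk7 and Klk10. On Day5 and Day14 it was 0.33 and 0.35 (adjusted p = 0.027 and 0.015, edgeR) with overlapping groups, and these calls were lost at 0.19 and 0.28 (adjusted p = 0.24 and 0.077) with Day0 replicates 1 and 4 only. The first was also lost without Day0 replicate 2 (0.21) or Day5 replicate 4 (0.28). It was lost too with edgeR on the 8 libraries of both days (0.31, adjusted p = 0.076) and with limma on log2(FPKM + 1) (0.28, adjusted p = 0.084) or log2(FPKM + 0.1) (0.29, adjusted p = 0.079). The call of Day14 was lost without Day14 replicate 3 (0.22).

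Klk7, the chymotrypsin-like protease of the cornified layer, changed little against Day0 except on Day10. It had 151, 205, 226 and 121 CPM on Day0, and the libraries of Day3, Day5, Day7, Day12 and Day14 ranged from 143 to 228. On Day10 it had 117, 107, 94.9 and 118 CPM, below all Day0 libraries, a log2 fold change of -0.69 (SE 0.13, adjusted p = 5.1e-05, edgeR's quasi-likelihood test). It was 0.30 on Day12 (SE 0.13), with an adjusted p of 0.0499 (edgeR) that lay above 0.05 in 11 of 18 other analyses with another tool, filter or scaling or without 1 library, and on the other 4 days the difference was between -0.17 and 0.21 and did not pass the test. Without Day0 replicate 3 it did on Day7 (0.36, adjusted p = 0.015, edgeR). With Day0 replicates 2 and 3 only, Klk7 was at 0.01 on Day12 and was lower on Day3, Day5 and Day14 (-0.22, -0.40 and -0.46, adjusted p of at most 0.043, edgeR), and with replicates 1 and 4 only it was higher on Day3, Day5, Day7 and Day14 (0.49, 0.27, 0.58 and 0.28, adjusted p of at most 0.032).

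Klk11, a protease of less settled function, had 9.40, 13, 14.5 and 9.51 CPM on Day0 and overlapped it on all days but Day14. On Day14 it had 5.13, 4.52, 6.85 and 6.32 CPM, the 4 lowest values of the 28, and fell by 1.03 on the log2 scale (SE 0.15, adjusted p = 7.6e-07, edgeR's quasi-likelihood test). On the other days its log2 fold change was between -0.30 and 0.04, and none passed the test. That of Day5 (-0.30) was called in 5 of 18 other analyses. These were those without Day0 replicate 1 (-0.37), Day0 replicate 4 (-0.37) or Day5 replicate 4 (-0.36), without composition normalization (-0.34) and with limma at a mean FPKM of at least 1 (-0.28), with adjusted p-values between 0.029 and 0.045. With Day0 replicates 2 and 3 only it was lower on Day5 and Day12 (-0.54 and -0.48, adjusted p = 0.0015 and 0.0053, edgeR), and with replicates 1 and 4 only it was higher on Day3 (0.38, adjusted p = 0.028).

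Klk5, placed at the start of the activation cascade, moved up and down between successive days. It had 34.7, 38.2, 46.1 and 37.8 CPM on Day0, and 24.2, 19.7, 21.1 and 21.4 on Day3. It was back at 38.8 to 44.9 CPM on Day7, at 20.1 to 25.8 on Day10, at 34.1 to 43.0 on Day12, and at 14.6, 13.9, 19.7 and 15 on Day14. On Day3, Day10 and Day14 all libraries were below all of Day0, and the log2 fold changes were -0.86 (SE 0.11), -0.84 (SE 0.11) and -1.31 (SE 0.11), with adjusted p-values of at most 1.9e-07 (edgeR's quasi-likelihood test). On Day7 and Day12 they were 0.12 and 0.02, and neither passed the test (adjusted p = 0.37 and 0.89, edgeR). The call on Day5 (-0.29, adjusted p = 0.018) was lost at -0.21 (adjusted p = 0.087) without Day0 replicate 3 and at -0.25 (adjusted p = 0.064) without Day5 replicate 2, and with Day0 replicates 1 and 4 only (-0.17, adjusted p = 0.23, edgeR).

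Klk10 had the widest spread on Day0, with 19.4, 107, 108 and 4.62 CPM in replicates 1 to 4. On the later days its libraries were close to each other: 41.6 to 52.1 CPM on Day3, 38.3 to 49.9 on Day5, 39.0 to 44.5 on Day7, 7.36 to 8.86 on Day10, 38.4 to 44.1 on Day12 and 12.2 to 14.3 on Day14. The drop from Day7 to Day10 and the return on Day12 therefore stood clear of the spread between libraries, while no day was clear of Day0. Klk10 was lower on Day10 and Day14 by the fit (log2 fold change -2.88, SE 0.48, adjusted p = 1.4e-05, and -2.20, SE 0.46, adjusted p = 0.00017, edgeR's quasi-likelihood test), but the groups overlapped and the exact permutation p was 0.14 and 0.31. Against Day0 replicates 2 and 3 only it was lower on all 6 days (-1.24 to -3.73, adjusted p of at most 8.2e-14, edgeR). Against replicates 1 and 4 only it was higher on Day3, Day5, Day7 and Day12 (1.96, 1.87, 1.81 and 1.82, adjusted p of at most 7.9e-07) and passed no test on Day10 and Day14 (-0.57 and 0.19). The direction of Klk10 against Day0 thus turned with the choice of Day0 libraries, and the Day14 call was lost with limma on log2(FPKM + 1) (-1.16, adjusted p = 0.093) and log2(FPKM + 0.1) (-1.17, adjusted p = 0.11). Without Day0 replicate 4 Klk10 was called lower on Day3, Day5, Day7 and Day12 (-0.73, -0.83, -0.88 and -0.87, adjusted p of at most 0.020, edgeR). In the same Day0 libraries the summed CPM of the fibroblast markers was also high in replicates 2 and 3, as given above, and its part in the result was not tested.

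Spink5, the inhibitor, had the lowest log2 fold change of the 9 genes on Day14. It had 141, 251, 243 and 127 CPM on Day0, 126, 96.1, 97.5 and 96.9 on Day3, 139 to 158 on Day5 and 149 to 179 on Day7. It was at 54.3, 44.9, 40.7 and 47.7 CPM on Day10, at 97.2 to 110 on Day12, and at 23.6, 24.2, 27.3 and 24.9 on Day14. All libraries of Day3, Day10, Day12 and Day14 were below all of Day0, and those of Day5 and Day7 lay within its range. The log2 fold change was -0.87 on Day3 (SE 0.15), -2.02 on Day10 (SE 0.15), -0.85 on Day12 (SE 0.15) and -2.93 on Day14 (SE 0.16), which is 7.63-fold lower on Day14 (adjusted p = 1.1e-14, edgeR's quasi-likelihood test). These 4 calls held with either pair of Day0 libraries, at -1.25 and -0.32, -2.40 and -1.52, -1.22 and -0.32, and -3.30 and -2.35 in the order of the days. On Day5 it was -0.37 (adjusted p = 0.032), a call lost in 9 of the 18 other analyses and, at 0.15 (adjusted p = 0.23), with Day0 replicates 1 and 4 only. On Day7 it was -0.23 (adjusted p = 0.19), called without Day0 replicate 1 (-0.35, adjusted p = 0.040) or Day0 replicate 4 (-0.38, adjusted p = 0.016). Spink5 was higher on Day7 against Day0 replicates 1 and 4 only (0.27, adjusted p = 0.030, edgeR) and lower against replicates 2 and 3 only (-0.60, adjusted p = 2.7e-06). Spink5 lies at chr18:43963235-44022501 (mm10, + strand), away from the kallikreins.

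**Figure D2:**
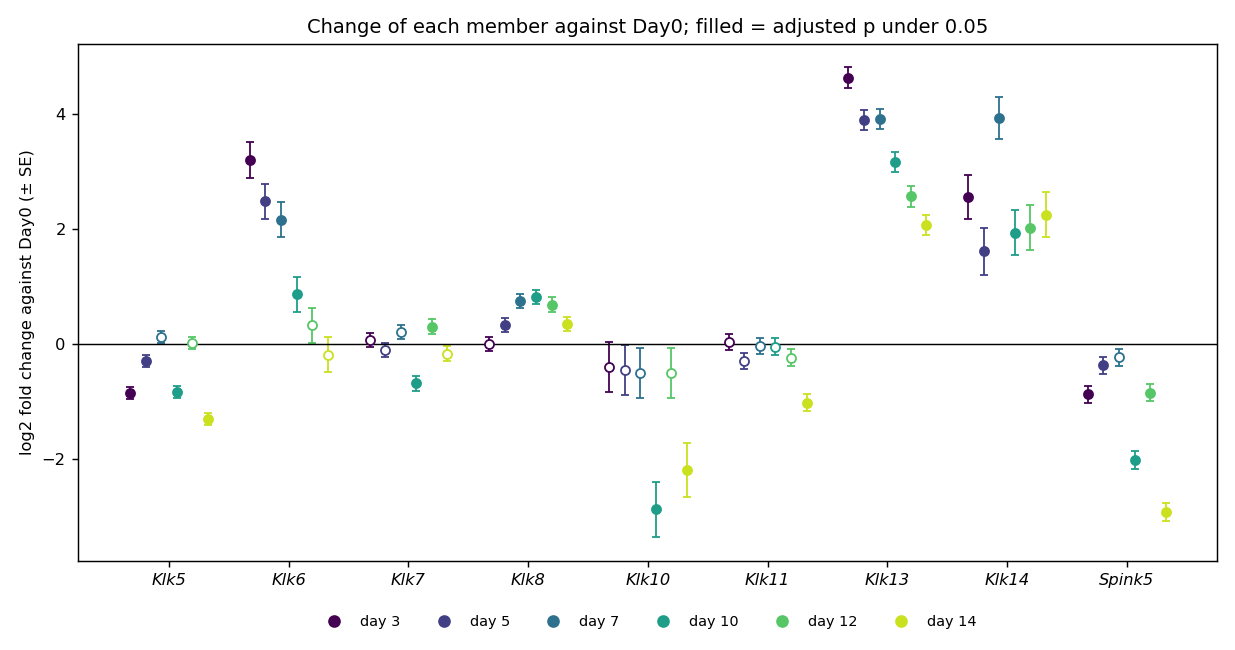
Log2 fold change of each gene against Day0 with its standard error, 6 days per gene from left to right; filled points passed an adjusted p under 0.05. Klk13 and Klk14 are above 0 and filled on all 6 days, and Spink5 reaches -2.93 on Day14.

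Comparisons between successive wound days do not use the Day0 means, although the Day0 libraries enter the shared estimate of the spread. A joint test of the 6 wound days found differences for 9 of 9 genes, where 85.1% of all genes tested passed it, and the ratio of the highest to the lowest day mean was 10.5 for Klk6, 6.50 for Spink5, 5.91 for Klk13, 5.6 for Klk10, 5.04 for Klk14, 2.68 for Klk5, 2.09 for Klk11, 1.98 for Klk7 and 1.76 for Klk8. From Day3 to Day5, Klk5 and Spink5 rose and Klk13 and Klk14 fell (4 of 9 genes; 24.3% of all genes moved in either direction at an adjusted p under 0.05, edgeR's quasi-likelihood test), and the number was 2 without Day3 replicate 3. From Day5 to Day7, Klk5, Klk8 and Klk14 rose (3 of 9; 28.5% of all genes). From Day7 to Day10, 7 of 9 genes fell and none rose, where 32.3% of all genes moved in either direction; Klk8 and Klk11 did not pass the test (adjusted p = 0.70 and 0.99, edgeR).

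The step from Day7 to Day10 was -1.79 for Spink5 (SE 0.15), -2.38 for Klk10 (SE 0.48), -2.0 for Klk14 (SE 0.31), -1.30 for Klk6 (SE 0.29), -0.95 for Klk5 (SE 0.11), -0.90 for Klk7 (SE 0.13) and -0.75 for Klk13 (SE 0.14), on the log2 scale. The 4 genes that rose again from Day10 to Day12 were Klk10 (2.38), Spink5 (1.18), Klk7 (0.99) and Klk5 (0.86), and all 4 libraries of Day12 were above all of Day10 for each; Klk13 fell further (-0.60), and 39.4% of all genes moved. From Day12 to Day14, 7 of 9 genes fell and none rose, where 45.2% of all genes moved: Spink5 by 2.09 (SE 0.16), Klk10 by 1.70 (SE 0.46), Klk5 by 1.33 (SE 0.11), Klk11 by 0.79 (SE 0.15), Klk13 by 0.50 (SE 0.15), Klk7 by 0.47 (SE 0.13) and Klk8 by 0.33 (SE 0.12; log2, edgeR). Klk6 (-0.51, adjusted p = 0.18, edgeR) and Klk14 (0.23, adjusted p = 0.58) did not pass the test at this step. Each day is 1 set of 4 libraries, and a batch of Day10 or Day14 cannot be told apart from the day.

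Levels were compared between genes per length, by FPKM (counts divided by the length of the gene and the depth of the library). Klk7 had the highest mean FPKM of the 9 genes on every day, from 57.7 on average on Day10 to 122 on Day12, and Klk14 the lowest, from 0.0735 on Day0 to 1.16 on Day7. On Day0 the order was Klk7 (89.3), Klk10 (43.2), Spink5 (36.1) and Klk5 (26.8), neighbours whose libraries overlapped, and then Klk8 (15.5), Klk6 (8.23), Klk11 (7.54) and Klk13 (0.555); Klk8, Klk6 and Klk11 overlapped in turn. On Day3 Klk6 (73.0) was second and overlapped Klk7 (90.3), and both were above Klk10 (31.6) and Spink5 (19.0) in all libraries. On Day5 the order was Klk7 (80.6), Klk6 (44.9), Klk10 (30.6) and Spink5 (27.1), of which the last pair overlapped, and on Day7 Klk7 (104) stood above Klk6 (37.2), Spink5 (30.8), Klk10 (30.6), Klk5 (29.0) and Klk8 (26.2), which overlapped in turn. On Day10 Klk8 (28.5) was second to Klk7 (57.7), and on Day12 Klk10 (33.7), Klk5 (29.98) and Klk8 (27.6), which overlapped in turn, came after Klk7 (122) and before Spink5 (22.2). On Day14 Klk7 (86.9) stood 4.02-fold above Klk8 (21.6), and Spink5 (5.16) was sixth, below Klk5 (11.8), Klk10 (10.3) and Klk6 (7.90).

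The 8 kallikreins summed to 191 ± 72.9 FPKM on Day0 (SD, n = 4), 245 ± 26.0 on Day3, 210 ± 17.99 on Day5, 244 ± 24.5 on Day7, 137 ± 12.99 on Day10, 236 ± 16.7 on Day12 and 145 ± 7.32 on Day14. Klk6 made up 3.81% of the sum on Day0 (mean of the 4 libraries), 29.8% on Day3 and 5.42% on Day14, and Klk7 48.3%, 36.8% and 59.9%. Klk8 made up 20.9% on Day10 against 9.47% on Day0. These sums describe RNA, and a precursor, its activation and its inhibition are not seen in them.

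**Figure D3:**
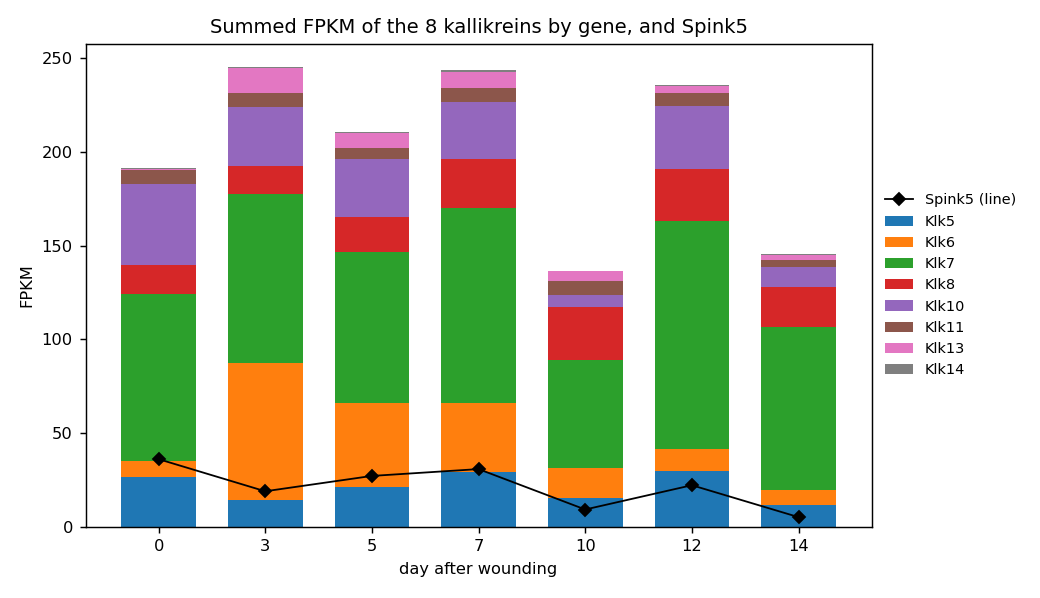
Mean FPKM of the 8 kallikreins stacked by gene for each day (n = 4 libraries), with the mean FPKM of Spink5 as a line. Klk7 is the largest part on each day, Klk6 widens on Day3 to 73.0 FPKM, and Spink5 goes from 36.1 on Day0 to 5.16 on Day14.

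Whether protease and inhibitor RNA moved together was read from the ratio of each kallikrein's counts to those of Spink5 in the same library, which does not depend on the normalization between libraries (2 counts were added to both before the log2). The summed FPKM of the 8 kallikreins was between 4.86 and 5.74 times that of Spink5 in the Day0 libraries, a narrow range although both parts spread widely there. It was between 12.2 and 13.7 on Day3, 7.10 and 8.95 on Day5, 7.45 and 8.52 on Day7, 13.2 and 15.9 on Day10, 10.2 and 10.9 on Day12, and 27.8 and 28.4 on Day14, so that no later library overlapped Day0. The ratios of all genes tested to Spink5 also rose, with a median difference from Day0 of 0.80, 0.29, 0.19, 1.95, 0.75 and 2.82 (log2) on the 6 days. As a ratio of FPKM, Klk7 to Spink5 was 2.88, 2.19, 2.497 and 2.55 on Day0 and 17.4, 17.2, 15.7 and 17.2 on Day14. The mean log2 count ratio of Klk7 was higher by 2.74 on Day14 than on Day0, beside the median of 2.82 over all genes. Klk7 itself did not pass the test on that day.

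All 8 ratios were above Day0 in every library on Day14, and the number was 5 on Day3, 3 on Day5, 4 on Day7, 7 on Day10 and 7 on Day12; none was below Day0 in every library on any day. The same ratio for all genes tested did not overlap Day0 for 51% of genes on Day3, 30.8% on Day5, 20.1% on Day7, 87.9% on Day10, 52.3% on Day12 and 93.1% on Day14, in either direction. The counts for Day10 and Day14 are thus those of most genes, and those for Day3 and Day5 are also near these shares. Above Day0 alone were 7868, 3864, 2360, 15796, 9228 and 16830 of 18106 genes on the 6 days. Against Day0 replicates 2 and 3 only, the ratios that were higher numbered 7, 6, 6, 7, 7 and 8 on the 6 days, and 1, that of Klk10, was lower on each of Day5, Day7, Day10 and Day12. Of all genes 85.4%, 80.2%, 77.4%, 96.5%, 88.2% and 98.2% did not overlap these 2 libraries. Against replicates 1 and 4 only, 6, 4, 5, 8, 8 and 8 ratios were higher and 1, that of Klk5, was lower on Day3, beside 63.3%, 57.9%, 57.9%, 89.3%, 61.9% and 94.3% of all genes that did not overlap. The median difference of the 8 ratios from Day0 was 1.12, 0.69, 0.75, 2.37, 1.33 and 2.91 (log2) on the 6 days, beside 0.80, 0.29, 0.19, 1.95, 0.75 and 2.82 over all genes. That of Klk13 was between 3.42 on Day12 and 5.52 on Day3, that of Klk14 between 1.92 on Day5 and 5.03 on Day14, and that of Klk6 between 1.51 on Day12 and 4.42 on Day3. That of Klk5 was within 0.29 of its Day0 ratio until Day7 (exact permutation p of at least 0.23) and higher by 1.13, 0.80 and 1.55 on Day10, Day12 and Day14 (exact two-sided permutation p = 0.0286 each, the smallest possible, with 48 ratios compared and no adjustment over them).

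**Figure D4:**
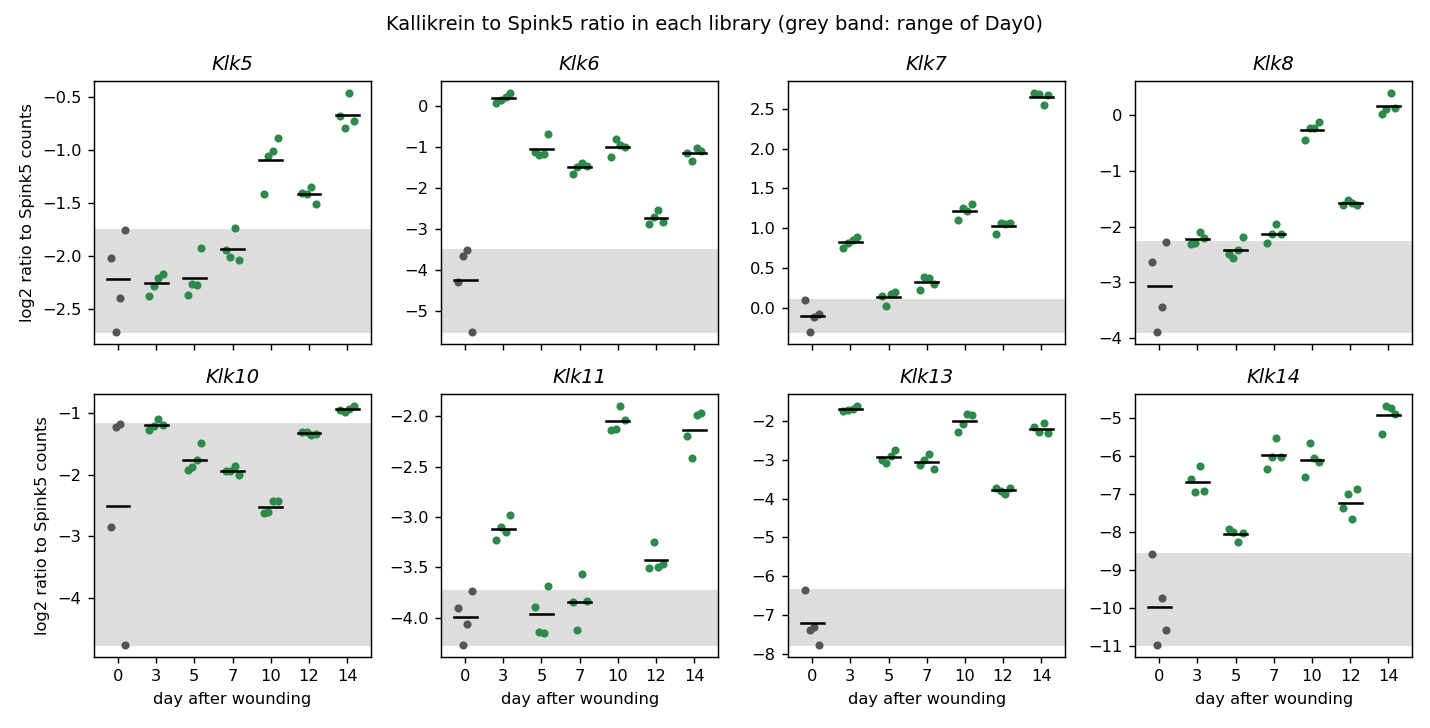
Log2 ratio of each kallikrein's counts to those of Spink5 in the same library, by day; bars are means of 4 libraries and the grey band is the range of the Day0 libraries. On Day14 all libraries of all 8 genes lie above the band, and Klk10 overlaps its wide band on Day3 to Day12.

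The ratio to the keratins of the basal layer, Krt5 and Krt14, was taken as a description of keratinocyte RNA, with no test. Krt5 itself ranged from 1359 to 3158 CPM on Day0 and was lower on Day3 (log2 fold change -0.77, SE 0.16), Day5 (-1.08), Day7 (-0.98) and Day12 (-0.45), and Krt14 passed the test on no day. Both depended on the Day0 libraries: with replicates 2 and 3 only Krt5 was at -0.14 on Day3 (adjusted p = 0.14, edgeR) and at 0.18 on Day12 (adjusted p = 0.081), and Krt14 was higher on all 6 days (0.33 to 1.12), whereas with replicates 1 and 4 only Krt14 was lower on Day5, Day7, Day12 and Day14 (-0.26, -0.44, -0.92 and -0.47). Relative to their mean, Klk13 and Klk14 were above all Day0 libraries on each of the 6 days, by 4.80 and 2.59 on Day3 and 2.01 and 2.06 on Day14 (log2). Klk6 was above them on Day3, Day5 and Day7 (3.71, 3.20 and 2.92). Klk8 was above them on Day7 and Day12 (1.11 and 1.03). Spink5 was below all Day0 libraries on Day10 and Day14 (-2.10 and -3.002), Klk5 likewise (-0.97 and -1.45), and Klk11 on Day14 (-1.15). Other changes called above overlapped Day0 in this ratio. They were Spink5 on Day3 and Day12 (-0.72 and -0.45), Klk5 on Day3 (-0.76), Klk7 on Day10 (-0.78) and Klk8 on Day10 (0.70), among others. The SD of the Day0 ratios was between 0.51 for Klk8 and 2.84 for Klk10.

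Some of the genes moved together over the 28 libraries, which share their days and their Day0 spread, and the correlations are given as a description. For log2 CPM, Pearson's r was 0.87 between Klk6 and Klk13 (0.98 over the 24 libraries of the wound days), 0.85 between Klk5 and Spink5 (0.83), 0.84 between Klk7 and Klk10 (0.83), 0.74 between Klk10 and Spink5 (0.85) and 0.74 between Klk13 and Klk14 (0.30). Klk8 had an r between -0.32 and 0.48 with each of the others. Among 14676 genes with a mean CPM of at least 1, those most like Klk6 were Elfn1 (0.96), Sh3bgrl, Ltb, Tpm4 and Glipr2 (0.96 each). Those most like Klk7 were 4930438A08Rik (0.91), Pnpla1 (0.91), Nipal1 (0.88), Slc5a8 (0.88) and Rnf225 (0.87). Those most like Spink5 were Spns2 (0.97), Dmkn (0.97), Clec10a, Cd209g and Cpa3 (0.96 each).

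Of 10 tested genes for other epidermal proteases, 5 were higher and 4 lower on Day3 and 4 higher and 2 lower on Day14 (edgeR's quasi-likelihood test, adjusted p under 0.05; the shares of all genes are those given above), with a median log2 fold change of 0.11 and 0.16. St14, which encodes matriptase, an activator of kallikrein precursors, was at 45.8 to 60.0 CPM on Day0 and 19.2 to 25.6 on Day3 (-1.21, SE 0.09), and at 165 to 198 on Day14 (1.84, SE 0.09). Prss8, the gene of prostasin, which works with matriptase, was lower on Day3 (-1.49) and at 0.10 on Day14 (adjusted p = 0.39, edgeR), and Tmprss4 was lower on Day14 (-1.59). With Day0 replicates 1 and 4 only Prss8 was higher on Day14 (0.38, adjusted p = 0.0029, edgeR), and the number of these proteases lower on Day14 was 1, against 4 with replicates 2 and 3 only. Tmprss11a was at 0 to 0.0264 CPM on Day0 and 0.304 to 0.462 on Day3. Mep1a and Mep1b, the genes of the meprins, had too few counts for a test.

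Of 10 other inhibitors of epidermal proteases, 4 were higher and 5 lower on Day3 and 5 higher and 4 lower on Day14 (medians -0.37 and 0.14). The Day3 median was 0.37 with Day0 replicates 2 and 3 only and -0.27 with replicates 1 and 4 only. Slpi, an inhibitor of neutrophil elastase, rose on Day3, with 151 to 169 CPM against 1.61 to 2.58 on Day0 (log2 fold change 6.30, adjusted p = 1.1e-22, edgeR) and did not pass the test on Day12 and Day14. Serpina12, the gene of vaspin, which inhibits Klk7, was lower on Day3 (-2.51) and on Day14 (-2.16), with 49.8 to 64.1 CPM on Day0 against 8.74 to 10.8 and 10.7 to 15.6. Spink6, another Kazal-type inhibitor of kallikreins, was at 0 to 0.792 CPM on Day0, at most 0.0270 on Day3 and 0.0271 on Day5, and 0 in all libraries of Day10, each called lower (adjusted p = 0.0029, 0.0053 and 0.0014, edgeR) although the groups overlapped at or near 0. These 3 calls were lost against Day0 replicates 2 and 3 only (adjusted p = 0.46, 0.32 and 1.0). It was higher on Day12 (0.762 to 1.74 CPM, adjusted p = 0.0061) and on Day14 (1.23 to 1.75 CPM, adjusted p = 0.0017, edgeR). The number of these inhibitors lower on Day14 was 2 with Day0 replicates 1 and 4 only. The untested inhibitors were Spink14 and A2ml1.

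Of 9 genes for corneodesmosome proteins and other known substrates, 3 were higher and 4 lower on Day3, 2 higher and 5 lower on Day10 and on Day14, with medians of -0.09, -1.004 and -0.43. The Day3 median was 0.15 with Day0 replicates 2 and 3 only and 0.07 with replicates 1 and 4 only. Dsg1a, the gene of a desmoglein of the upper epidermis, was lower on Day3 (-1.63) and Day14 (-1.18), and on Day12 the difference was -0.21 (adjusted p = 0.071, edgeR). Cdsn, the gene of corneodesmosin, which Klk5, Klk7 and Klk14 cleave, was lower on Day3 (-0.72), Day10 (-1.52) and Day14 (-1.76), and at 0.13 on Day7 (adjusted p = 0.46, edgeR). With Day0 replicates 1 and 4 only the Day3 call of Cdsn was lost (-0.24, adjusted p = 0.077) and Cdsn was higher on Day7 (0.56, adjusted p = 0.00022), and with replicates 2 and 3 only Dsg1a was lower on Day12 (-0.36, adjusted p = 0.0019, edgeR) and 3 genes of the list were lower on Day14. Camp, whose product kallikreins process, was at 0.106 to 0.389 CPM on Day0 and 1.77 to 3.11 on Day14 (3.46, adjusted p = 1.5e-07, edgeR).

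Of 5 genes for protease-activated receptors and the cytokine Tslp, which lies downstream of one of them, 1 was higher and 4 lower on Day3 and 1 higher and 2 lower on Day14 (medians -0.99 and -0.10). The Day14 median was 0.18 with Day0 replicates 2 and 3 only and -0.31 with replicates 1 and 4 only. F2r was lower on Day3 (-0.43) and higher from Day5 on (0.50 to 1.38), F2rl3 was higher on Day3 (1.23), and F2rl2 was lower on all 6 days (-1.0 to -2.05), although with Day0 replicates 1 and 4 only the calls of Day3 and Day12 were lost (-0.33 and -0.38) and 2 genes of the list were lower on Day3. Tslp had 1.78 to 5.74 CPM on Day0 and 0.592 to 0.712 on Day14 (-2.48, adjusted p = 1.7e-08, edgeR). Among the other kallikreins Klk9, a neighbour in the block, was at 5.31 to 8.32 CPM on Day0 and 26.2 to 30.7 on Day3 (2.06), higher on all days until Day12 and at -0.22 on Day14 (adjusted p = 0.16, edgeR). Of the 4 tested, 2 were higher and 1 lower on Day3 and 1 higher and 2 lower on Day14. With Day0 replicates 2 and 3 only 1 was higher on Day3, and with replicates 1 and 4 only 3 were higher on Day3 and none was lower on Day14. Klk12 had 0.0278 to 1.09 CPM on Day0 and at most 0.0246 on Day14, Klk15 had at most 0.132 on Day0 and 0.266 to 0.592 on Day14, and Klk4 had too few counts for a test.

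**Figure D5:**
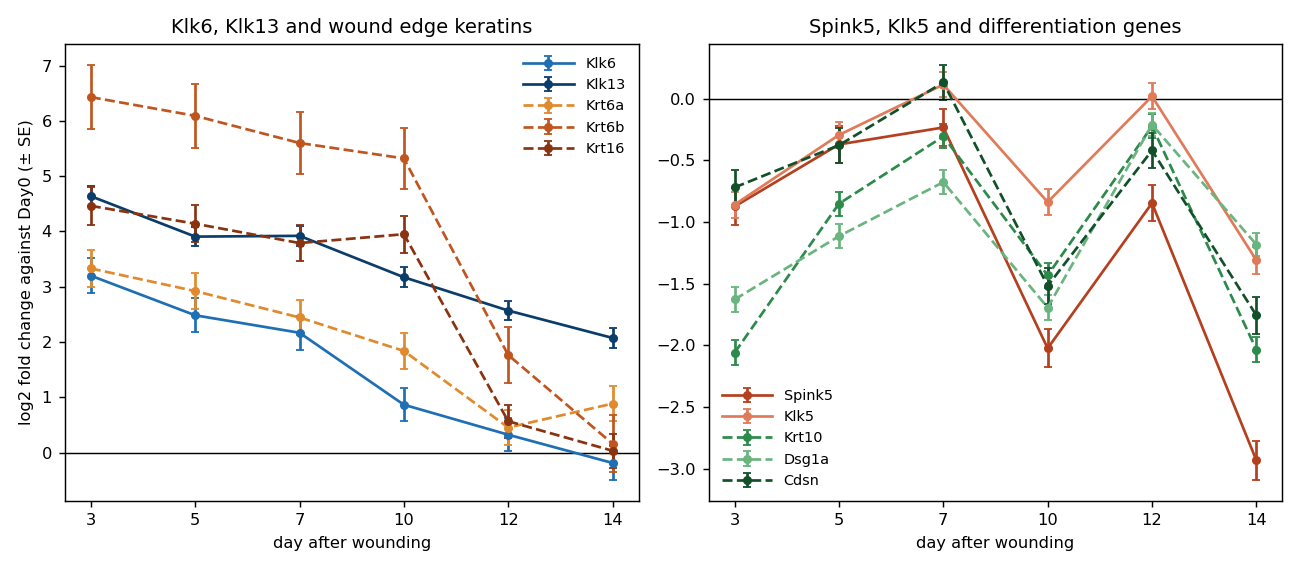
Log2 fold change against Day0 with its standard error by day: Klk6 and Klk13 with 3 wound edge keratins (left), Spink5 and Klk5 with 3 differentiation genes (right). On Day10 Krt6b and Krt16 are at 5.32 and 3.95 and Klk6 is at 0.87, and Spink5, Krt10 and Cdsn are at -2.93, -2.03 and -1.76 on Day14, while Flg and Tgm3, not drawn, were higher on that day (2.06 and 3.10).

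The keratinocyte markers also changed between days, in both directions. The skin label was checked on keratins, and Krt5, Krt14, Krt1 and Krt10 were at 424 CPM or more in each Day0 library. Of 5 wound edge keratinocyte genes, 4 were higher on each of Day3, Day5, Day7 and Day10 and 3 on Day12 and Day14. Krt17, the gene not among the 4, was lower on Day5, Day7 and Day10 (-0.48, -0.23 and -0.28, the last 2 calls lost with Day0 replicates 1 and 4 only) and higher on Day12 and Day14 (0.89 and 1.77). Krt6a was at 28.6 to 182 CPM on Day0 and 796 to 979 on Day3 (3.33) and Krt16 at 10.4 to 57.7 and 514 to 662 (4.46). Krt16 was at 3.95 on Day10 and 0.57 on Day12 (adjusted p = 0.13, edgeR), where it was higher with Day0 replicates 2 and 3 only (1.79, adjusted p = 3.2e-11). Of the wound edge genes 5 were higher on Day12 and Day14 with these 2 libraries, and 2 higher and 2 lower on Day14 with replicates 1 and 4. Of 5 spinous genes, 4 were lower on Day3 and 5 on Day14; Krt10 was at -2.06 on Day3, -0.31 on Day7, -1.43 on Day10, -0.22 on Day12 (adjusted p = 0.061, edgeR) and -2.03 on Day14, and Krt1 was at -0.91 on Day3, 0.78 on Day7 and -0.50 on Day14. Of 6 granular genes, 4 were lower and 1 higher on Day3 and 4 lower and 2 higher on Day14, with Flg2 at -1.98 and -2.62 and Tgm3 at 2.08 and 3.10. Flg, the gene of profilaggrin, was lower on Day3 (-0.52, a call lost with Day0 replicates 2 and 3 only) and higher on Day5 to Day14 (1.28, 2.04, 2.79, 2.32 and 2.06). Krt17, Krt6b, Flg and the genes named below for a count of 1 were chosen after their values were seen. Of 5 basal genes 3 were lower on Day3 and 2 on Day14, where Trp63 was higher (0.69) and Col17a1 lower (-0.99). With Day0 replicates 2 and 3 only, 2 basal genes were higher and 2 lower on Day3 and 3 higher and 1 lower on Day14, and with replicates 1 and 4 only 3 and 4 were lower on these days, with 1 higher on Day14. The part of these layers in the changes of the 9 genes was not tested.

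The markers of other cell types of the skin changed too. The summed CPM of 5 neutrophil markers was 15.9 to 41.7 on Day0, 4313 to 5453 on Day3 and 14.8 to 18.5 on Day14; all 5 were higher on each day until Day10, and S100a8 was at 7.94 (log2) on Day3. All 5 macrophage markers were higher on Day3 and all 5 lower on Day14 (summed CPM 809.9 to 1204 on Day0, 2028 to 2129 and 278 to 312). The 6 hair follicle genes summed to 222 to 2075 CPM on Day0, 7.42 to 14.1 on Day3 and 3252 to 4388 on Day14, with all 6 lower on Day3 and Day5 and higher on Day12 and Day14; on Day10 they summed to 213 to 248. Of 5 sebaceous genes 4 were lower and 1, Scd1, was higher on Day3 (0.74) and on Day14 (0.18, a call lost with Day0 replicates 2 and 3 only). Scd1 held most of their summed CPM, which was 4843 to 6386 on Day0 and, higher, 7603 to 8531 on Day3. Of 5 fibroblast genes 4 were lower and 1, Pdgfra, was higher (1.00) on Day3, and all 5 were lower on Day14. With Day0 replicates 1 and 4 only, 3 fibroblast genes were higher and 1 lower on Day3, and 2 were lower on Day14. All 4 muscle genes were lower on both days, while of 4 adipocyte genes 1 was lower and 1 higher on Day3 and 2 were higher on Day14 (3 with either pair of Day0 libraries). No marker of these lists was at 0 in all libraries of a day, and the part of these cells in the changes of the 9 genes was not tested.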

How the data were processed

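RNA of skin wounds was measured in 28 libraries, 4 on each of 7 days. The authors deposited raw read counts per gene and FPKM, which divide a count by gene length and depth. The submitters' processing notes name fastp, R 3.2.0 and mm10, and the aligner, the counter, the annotation and the strand setting are not given in the sources used here. The study's methods name DESeq2 with a log2 fold change over 1.5 and P under 0.05. Each library held 36706513 to 40655764 counts.

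The 9 genes and the gene lists were chosen with earlier results of these data known. Genes with low counts were removed with edgeR's filter, which left 18107 of 29068 genes (347 were at 0 throughout), and all 7 days entered 1 fit of edgeR's quasi-likelihood test (edgeR 4.0.16, R 4.3.3, TMM normalization, 21 residual degrees of freedom), with p-values adjusted over all genes tested by the Benjamini-Hochberg method at 0.05. CPM used the normalized library totals. Exact two-sided permutation tests compared single values (scipy 1.17.1), and figures were drawn with matplotlib 3.10.9. The fits were tested on simulated data. Named genes were the 9 members, for each list the genes with the highest and the lowest log2 fold change on Day3 and on Day14, 6 keratins (Krt5, Krt14, Krt1, Krt10, Krt6a and Krt16), and the 5 genes whose log2 CPM correlated most with Klk6, Klk7 and Spink5. Alternatives were DESeq2 1.42.0, limma 3.58.1 on log2(FPKM + 1) and log2(FPKM + 0.1), other scalings and filters, a replicate block, the study's limits, leaving out each library, and, chosen after seeing the data, Day0 represented by replicates 2 and 3 or 1 and 4. Each Day0 library and the same-numbered library of each later day did not deviate together (r between -0.070 and 0.053). The later days were not compared with each other in this way, so that a pairing among them was not tested. No library was a repeat of another.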

Additional observations from a re-analysis of the deposited data

Results flagged for a closer look

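In 3 of 63 groups of 4 libraries 1 library stood far from the others (Dixon's test on log2 CPM), where chance gives 3.15. Klk13 in Day0 replicate 4 was at -0.7878, with the others between 0.5762 and 0.7779. Spink5 in Day3 replicate 1 was at 6.976, with the others between 6.587 and 6.608. Spink5 in Day12 replicate 4 was at 6.603, with the others between 6.765 and 6.779. Without these libraries the calls for Klk13 on all 6 days and for Spink5 on Day3 and Day12 kept their direction and their side of the threshold.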

How the results depend on the processing

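Of the 54 values of a gene on a day, 35 passed the threshold, and 28 of these did so in the same direction in all other analyses that gave a value, apart from the choice of Day0 libraries. Klk13 and Klk14 did so on all 6 days, although Klk14 was removed by the filters of 10 counts in every library and of a mean FPKM of 1, and limma on log2(FPKM + 1) lowered its values to between 0.19 and 1.00. With Day0 replicates 1 and 4 only, 6 genes were higher on Day3, 7 on Day7, and 0 were lower on Day5. With replicates 2 and 3 only, 4 genes were lower on Day3, 5 on Day5, 2 on Day7 and 4 on Day12. In the same setting 7 ratios to Spink5 did not overlap Day0 on Day5 and on Day7 (6 higher and that of Klk10 lower), beside 80.2% and 77.4% of all genes. At a log2 fold change over 1.5 and an unadjusted P under 0.05, 2 genes were higher on Day10 and on Day12, and the number lower was 0 on Day3, Day5 and Day12 and 2 on Day10 and Day14, since smaller changes do not pass. With at least 10 counts in every library 2 genes were higher on Day12, and 1 was lower on Day5 with edgeR on the 8 libraries compared and with limma on log2(FPKM + 1) or log2(FPKM + 0.1). Leaving out 1 library gave 0 to 4 genes lower on Day5, 0 to 2 on Day7, 1 to 2 on Day12, and 2 to 4 genes called between Day3 and Day5. With a replicate block 3, 4, 4, 4, 3 and 3 genes were higher and 2, 2, 0, 4, 1 and 4 lower on Day3 to Day14, and the block ended 1 call, that of Klk7 on Day12 (0.31, adjusted p = 0.057, edgeR).

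The direction turned as follows (log2), and the cause was not tested. With Day0 replicates 1 and 4 only, Klk8 was at -0.095 on Day3, Klk10 at 1.96, 1.87, 1.81, 1.82 and 0.19 on Day3, Day5, Day7, Day12 and Day14, Klk7 at 0.27 and 0.28 on Day5 and Day14, Klk11 at 0.010, 0.25, 0.25 and 0.075 on Day5, Day7, Day10 and Day12, Spink5 at 0.15 and 0.27 on Day5 and Day7, and Klk6 at 1.25 on Day14. With replicates 2 and 3 only, Klk7 was at -0.22 and -0.078 on Day3 and Day7, Klk11 at -0.20 on Day3, Klk5 at -0.083 and Klk6 at -0.36 on Day12. Without composition normalization Klk8 was at -0.053 and Klk11 at -0.018 on Day3, and Klk11 at 0.0098 on Day10. Klk8 on Day3 was also at -0.0088 without a filter, -0.018 with at least 10 counts, -0.022 on the 8 libraries compared, -0.041 with limma on log2(FPKM + 1) with or without a mean FPKM of at least 1 and -0.043 on log2(FPKM + 0.1). With limma on log2(FPKM + 1), with or without a mean FPKM of at least 1, Klk10 was at 0.37, 0.32, 0.33 and 0.46 on Day3, Day5, Day7 and Day12, Klk11 at 0.027 on Day10, Klk6 at 0.24 and Klk7 at 0.0033 on Day14, and on log2(FPKM + 0.1) these were 0.44, 0.40, 0.40, 0.54, 0.033, 0.34 and 0.0038. Leaving out 1 library gave ranges that crossed 0 for Klk7 (-0.021 to 0.22), Klk8 (-0.10 to 0.14), Klk10 (-0.73 to 0.051) and Klk11 (-0.00028 to 0.17) on Day3, Klk7 on Day5 (-0.24 to 0.031), Klk11 on Day7 (-0.13 to 0.087) and Day10 (-0.13 to 0.083), Klk5 on Day12 (-0.020 to 0.11), and Klk6 (-0.44 to 0.22) and Klk7 (-0.23 to 0.023) on Day14, none of which passed the test with all libraries. Over all genes, 6082 were higher and 2943 lower on Day12 without composition normalization (67.4% higher, median 0.11) against 3923 and 4634 with it (45.8%, median -0.04), and on Day14 56.2% against 45.0% of calls were higher. Klk14 and Klk13 had few counts on Day0 (1 to 12 and 19 to 63), which limits the precision of their fold changes.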
